A study of Homo sapiens with 2 samples.

Results

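The ATP binding cassette (ABC) family was examined in Huh7 cells, a human hepatocellular carcinoma line, after transfection with a negative control siRNA (Huh7-NC, labelled si-NC with the genotype control) or with si-BRF2, which targets the transcription factor gene BRF2 (Huh7-si). The members were the 48 genes, of 61541 in the deposited table, whose symbol was ABC followed by a subfamily letter from A to G and a number, or was CFTR, TAP1 or TAP2, with rows described as pseudogenes left out. ABCC13 was left out for that reason. The family was selected on the already known Huh7-si over Huh7-NC ratios of its members, so the values below are a description, with no test. Each condition was 1 library of 1 cell line, and no difference has a replicate check. Which of the siRNAs against BRF2 was sequenced was not given in the sources used here, and in bulk libraries, less RNA per cell and fewer cells of a kind cannot be told apart.

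ABC proteins bind and hydrolyse ATP through a conserved nucleotide-binding domain, and most use that energy to move a substrate across a membrane. A full transporter carries paired nucleotide-binding and membrane-spanning domains in a single chain, whereas other members carry a single set and work as dimers, and subfamilies E and F have no membrane domain and act on ribosomes and translation. In hepatocytes the family is known for export into bile (bile salts, phospholipid, sterols, conjugated bilirubin and drugs), for loading of cholesterol onto apolipoprotein A-I and for drug resistance in tumours.

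The Huh7-NC library held 22852648 estimated reads on genes and the Huh7-si library 22089016. BRF2, the target of the siRNA, was at 1281 and 364 reads, a log2 ratio of -1.77 (95% counting interval -1.94 to -1.60). All 12 genes of a hepatocyte and hepatoma marker list (such as ALB, AFP, HNF4A and GPC3) had reads in both libraries and summed to 15877 TPM (transcript abundance scaled for length and library size) in the control and 17191 TPM in Huh7-si. Markers of other liver cells were mixed. Of 4 cholangiocyte markers, 3 (KRT19, SOX9 and EPCAM) had at least 10 reads, KRT7 had 0 and 3 reads, and the list summed to 258 and 282 TPM. Of 4 macrophage and leukocyte markers, CD68 and LYZ had at least 10 reads, CD163 was at 0 in both libraries, PTPRC had 5 and 1 reads, and the list summed to 447 and 444 TPM. Endothelial markers were near 0, at 0.96 and 1.60 TPM for 3 genes, of which PECAM1 alone had at least 10 reads. The 4 stellate and fibroblast markers, of which COL1A1 and PDGFRB had at least 10 reads and DCN was at 0, summed to 4.92 and 9.31 TPM. COL1A1 was at 76 and 229 reads, and the part of other cell types in the values below was not tested.

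Of the 48 members, 42 had at least 10 reads over both libraries. ABCA12, ABCA13 and ABCC12 were at 0 in both, which allows up to 3 reads in each (0.131 and 0.136 CPM, where CPM is a gene's reads scaled to the library's summed reads). ABCB5 had 0 and 3.03 reads, ABCC8 had 0 and 1 read, and ABCG4 had 1 and 2 reads, so no ratio was read from them.

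Promoter sequences are shown first for 6 members, taken from RefSeq (build GRCh38.p14) as 250 bases before to 50 bases after the annotated start, 5′ to 3′ on the strand of the gene. ABCA7, ABCA1 and ABCC2 are shown because they were past 2-fold with the narrowest counting intervals among the members past 2-fold that have a window, ABCG5 and ABCG8 because they start back to back on opposite strands, and ABCE1 as an abundant member whose reads did not differ. Capitals mark matches, on either strand, to 7 short words: the GC box GGGCGG, the CCAAT box CCAAT, the TATA box written as TATAAA, the E-box CACGTG, the nuclear receptor hexamer AGGTCA, the HNF1 core GTTAAT and the antioxidant response element core TGACNNNGC.
ABCA7, chr19:1039857-1040156, plus strand: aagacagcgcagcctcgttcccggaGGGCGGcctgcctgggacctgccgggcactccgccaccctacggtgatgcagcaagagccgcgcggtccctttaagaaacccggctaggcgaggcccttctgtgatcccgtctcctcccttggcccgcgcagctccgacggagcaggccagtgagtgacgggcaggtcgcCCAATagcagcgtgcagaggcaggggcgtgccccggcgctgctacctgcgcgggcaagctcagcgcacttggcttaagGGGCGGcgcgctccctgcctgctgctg
ABCA1, chr9:104928106-104928405, minus strand: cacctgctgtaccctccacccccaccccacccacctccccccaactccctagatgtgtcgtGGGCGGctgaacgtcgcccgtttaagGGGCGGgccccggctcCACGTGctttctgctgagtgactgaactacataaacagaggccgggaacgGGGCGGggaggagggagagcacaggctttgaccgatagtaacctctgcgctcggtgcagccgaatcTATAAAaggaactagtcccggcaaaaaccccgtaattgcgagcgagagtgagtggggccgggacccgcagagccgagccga
ABCC2, chr10:99782390-99782689, plus strand: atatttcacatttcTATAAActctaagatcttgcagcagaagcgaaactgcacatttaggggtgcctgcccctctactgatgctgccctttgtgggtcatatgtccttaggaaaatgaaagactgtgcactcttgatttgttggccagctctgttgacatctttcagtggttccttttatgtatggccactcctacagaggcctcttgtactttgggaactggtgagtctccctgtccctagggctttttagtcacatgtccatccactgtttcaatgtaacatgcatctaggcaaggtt
ABCG5, chr2:43838790-43839089, minus strand: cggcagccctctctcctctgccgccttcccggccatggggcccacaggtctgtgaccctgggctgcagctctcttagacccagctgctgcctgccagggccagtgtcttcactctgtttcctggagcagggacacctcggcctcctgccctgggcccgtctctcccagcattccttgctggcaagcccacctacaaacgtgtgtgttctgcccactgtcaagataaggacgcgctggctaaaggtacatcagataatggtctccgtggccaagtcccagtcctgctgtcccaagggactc
ABCG8, chr2:43838721-43839020, plus strand: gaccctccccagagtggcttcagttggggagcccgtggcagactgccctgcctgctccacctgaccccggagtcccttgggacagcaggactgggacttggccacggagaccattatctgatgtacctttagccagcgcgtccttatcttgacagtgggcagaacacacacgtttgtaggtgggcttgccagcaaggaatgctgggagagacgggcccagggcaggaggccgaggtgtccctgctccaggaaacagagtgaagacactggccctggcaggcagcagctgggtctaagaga
ABCE1, chr4:145098061-145098360, plus strand: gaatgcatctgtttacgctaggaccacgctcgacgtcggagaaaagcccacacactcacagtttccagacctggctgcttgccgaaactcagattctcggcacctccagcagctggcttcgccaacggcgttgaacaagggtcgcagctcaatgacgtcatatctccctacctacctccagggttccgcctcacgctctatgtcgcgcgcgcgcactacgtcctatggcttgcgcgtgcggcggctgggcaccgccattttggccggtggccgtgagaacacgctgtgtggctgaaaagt
The windows of ABCG5 and ABCG8 overlap by 231 bases, which read the same on opposite strands, and the annotated starts lie 132 bases apart. ABCA7 held 29 CpG dinucleotides and ABCE1 held 28, against 1 in ABCC2. ABCA1 held 3 GC boxes, 1 TATAAA and 1 E-box, ABCA7 held 2 GC boxes and 1 CCAAT, ABCC2 held 1 TATAAA, and none of the 7 words was found in the windows of ABCG5, ABCG8 or ABCE1. No 2 matches of different words overlapped in these windows. Windows were found for 38 of the 48 members, 57 in all because some genes have several starts. A GC box was in 49.1% of the member windows and in 45% of all 35116 windows, an E-box in 15.8% and 7.26%, TGACNNNGC in 21.1% and 13.3%, TATAAA in 15.8% and 11.5%, CCAAT in 24.6% and 34.6%, AGGTCA in 7.02% and 13.8%, and GTTAAT in 1.75% and 6.88%. These are matches of letters and say nothing of binding.

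Levels were compared between genes in TPM. The most abundant members in both libraries were housekeeping ATPases and organelle transporters. ABCF1, a factor of translation initiation, was highest at 76.4 TPM in Huh7-NC and 85.3 TPM in Huh7-si. ABCB6, a porphyrin transporter, was at 61.4 and 68.6 TPM, ABCF3 at 49.0 and 70.4 TPM, and ABCE1, which splits ribosomes after termination, at 45.4 and 54.5 TPM. The 4 soluble ATPases together held 37.1% of the family's summed TPM in Huh7-NC and 31.9% in Huh7-si. Among transporters at the cell surface, ABCC6 (30.4 and 43.7 TPM), ABCC2 (24.6 and 47.8 TPM) and ABCB1 (12.6 and 25.2 TPM) were the highest. The bile salt export pump ABCB11 was near the bottom at 0.14 and 0.20 TPM. ABCC2 was at rank 11 of the members in the control and rank 6 in Huh7-si, and ABCA7 at ranks 24 and 19.

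**Figure D1:**
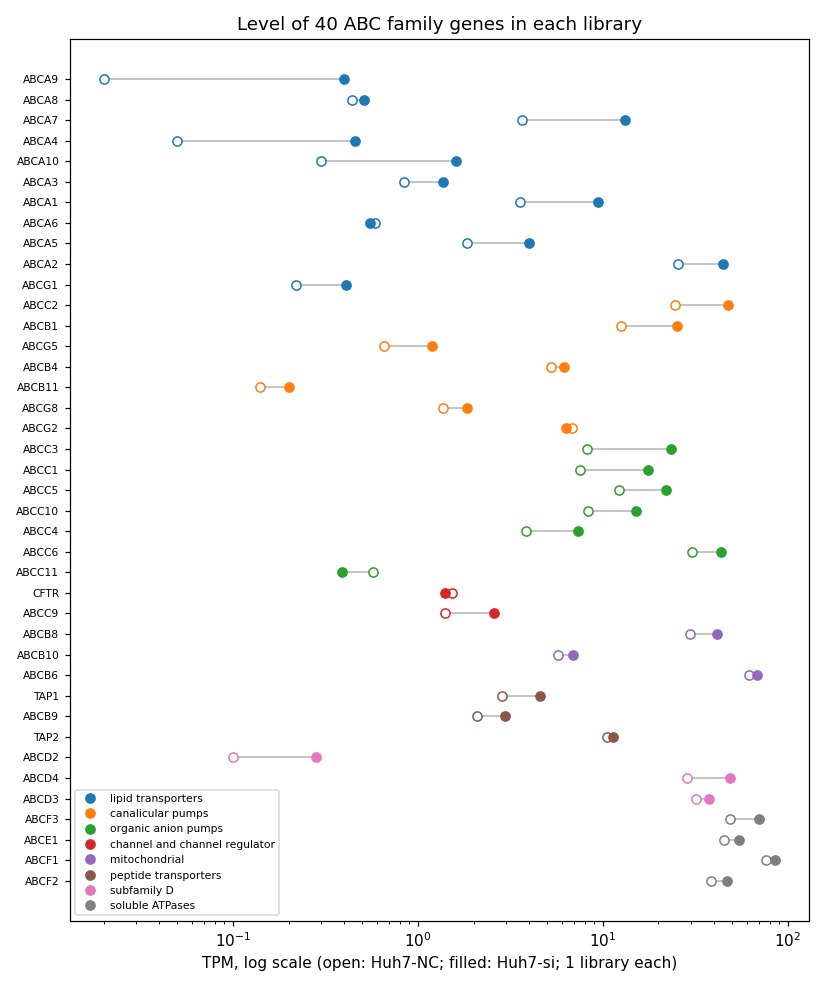
TPM (log axis) of 40 of the 42 ABC family genes with at least 10 reads, with Huh7-NC as an open and Huh7-si as a filled point of 1 library each and colours for the role of the protein. The soluble ATPases sit at the right in both libraries, and the lipid transporters ABCA7 and ABCA1 are among those whose points lie far apart.

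Differences were calculated as log2 ratios of CPM, Huh7-si over Huh7-NC, with 95% exact Clopper-Pearson intervals that cover counting error only. Of the 42 members, 11 were at least 2-fold higher in Huh7-si, against 15.2% of the 17921 genes with at least 10 reads, and 0 were at least 2-fold lower, against 1.81% of those genes. Values above 0 were found in 36 of the 42, against 64.8% of all genes. The median log2 ratio was 0.55 for the members and 0.21 for all genes. With edgeR's TMM scaling in place of total reads, which moves every log2 ratio by -0.22, 8 members were past 2-fold higher, against 11% of all genes. Values above 0 with TMM scaling were found in 29 members, against 8813 of the 17921 genes. The members just past 2-fold were ABCC2 and ABCA1, both 2.29-fold higher, and those just short of it were ABCA6 (1.93-fold) and ABCB1 (1.86-fold). All 11 intervals of the members past 2-fold lay above no change, and 5 (ABCA1, ABCA7, ABCA8, ABCC2 and ABCC3) lay wholly above 2-fold. ABCA4, ABCA8, ABCA9 and CFTR had under 10 reads in Huh7-NC and entered the 42 through their reads in Huh7-si, so these counts are no support for a difference of the family.

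**Figure D2:**
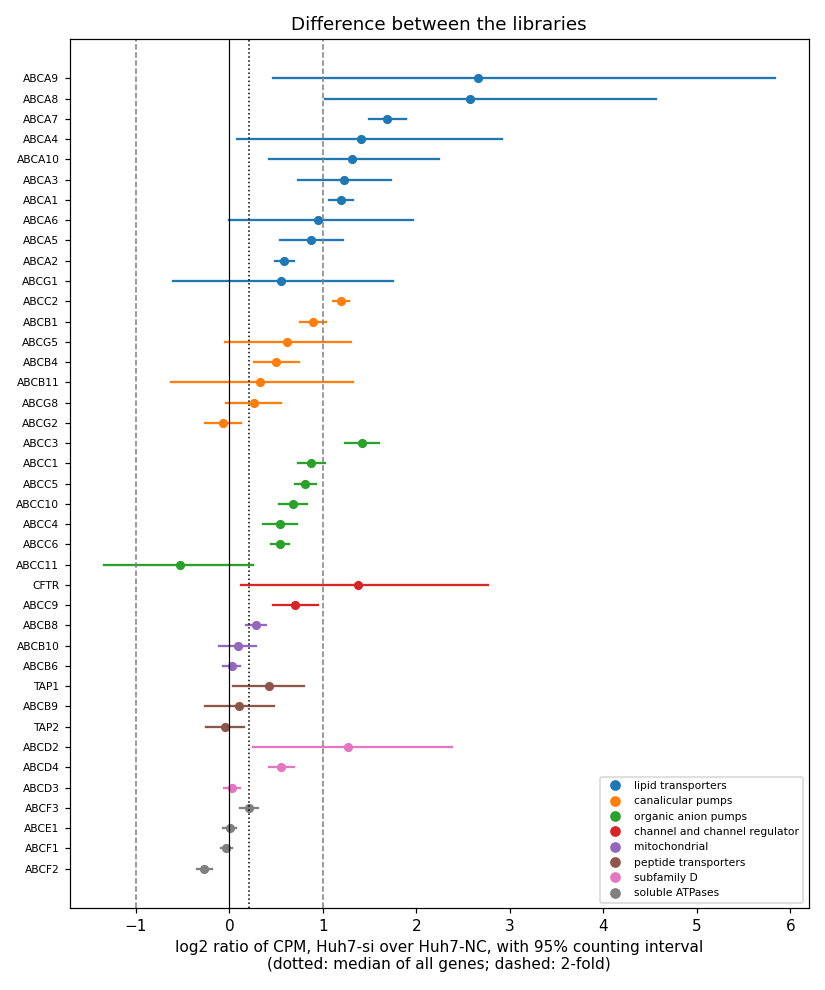
Log2 ratio of CPM (Huh7-si over Huh7-NC) with its 95% counting interval for the same 40 genes, ordered within its role, with 1 library per condition. All 11 lipid transporters lie right of 0 on this scale (ABCA6 is below 0 by TPM) and the 4 soluble ATPases lie between -0.27 and 0.21.

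The lipid transporters held most of the genes past 2-fold. This group takes in subfamily A, full transporters that export phospholipid and sterols, and the sterol transporters ABCG1 and ABCG4. Of 14 listed genes, 11 had at least 10 reads, 7 were past 2-fold higher, against 15.2% of all genes and 18.9% of those of at least 5000 bases, and the median log2 ratio was 1.22 (0.997 with TMM scaling). Of the 7, ABCA4, ABCA8 and ABCA9 passed the read filter only through their Huh7-si reads. ABCA1, which passes cholesterol and phospholipid to apolipoprotein A-I, had 708 control reads against 1566 after si-BRF2, a log2 ratio of 1.19 (1.07 to 1.32). ABCA7, a close relative of ABCA1 that also moves phospholipid, went from 280 to 870 reads, with a log2 ratio of 1.68 (1.49 to 1.88), which was the largest among members with at least 100 reads. ABCA3, the lipid pump of surfactant bodies in lung, was at 51 and 115 reads (1.22, 0.73 to 1.73). Each of these 3 genes was higher in Huh7-si by reads and by TPM, and ABCA3 had a smaller log2 ratio of TPM, 0.71. ABCA2, an endosomal and lysosomal member, had the most reads of the group, 1342 and 1947, and a log2 ratio of 0.59. ABCG1 had 12 and 16.99 reads, and its interval (-0.60 to 1.75) includes no change. ABCA4, the retinal transporter of photoreceptors, had 7 and 18 reads (1.41, 0.08 to 2.91).

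Of the group, 5 genes lie next to each other on chromosome 17, all on the minus strand, in the order ABCA8, ABCA9, ABCA6, ABCA10 and ABCA5 (68867292 to 69327244 on GRCh38, GENCODE release 29). ABCA5, the best covered, was at 119 and 211 reads, a log2 ratio of 0.88. ABCA10 was at 15.8 and 38.1 reads (1.32, 0.42 to 2.24), and the annotated ends of ABCA5 and ABCA10 overlap on the same strand. ABCA6 was at 15 and 28 reads (0.95, with an interval that just includes no change). ABCA8 was at 4 and 23 reads (2.57, 1.02 to 4.56), and ABCA9 at 2 and 12.2 reads (2.66, 0.47 to 5.84). All 5 were thus higher by reads, 4 of them on under 100 reads. Among all genes of at least 5000 bases, as these 5 are, 87.4% were above 0. By the TPM columns ABCA6 was at 0.59 TPM in Huh7-NC and 0.55 TPM in Huh7-si, and ABCA8 at 0.44 and 0.51 TPM, so the direction of ABCA6 and the size of the difference of ABCA8 depend on which column is read.

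The canalicular pumps were less uniform, with a median log2 ratio of 0.50, against 0.21 for all genes. Relative to genes of like length, 4 of the 7 were above 0, as were 8954 of the 17921 genes. ABCC2 (MRP2), which exports conjugated bilirubin and other organic anions into bile, was at 1549 and 3427 reads, a log2 ratio of 1.19 (1.11 to 1.28). It was the only one of the 7 past 2-fold, against 15.2% of all genes that were at least 2-fold higher. With TMM scaling its log2 ratio was 0.97, and by TPM 0.96, both just under 2-fold. ABCB1 (MDR1, P-glycoprotein), the classical multidrug resistance pump, went from 634 to 1139 reads (0.89, 0.75 to 1.04). ABCB4 (MDR3), its neighbour on chromosome 7, which flips phosphatidylcholine into bile, was at 247 and 338 reads (0.50, 0.26 to 0.74). The Huh7-si counts of both were fractional, so how reads were split between this similar pair is uncertain. ABCG2 (BCRP), a drug and urate pump, differed by less than counting error, with 468 and 431 reads and a log2 ratio of -0.07 (-0.26 to 0.12). The sterol exporter is a dimer of ABCG5 and ABCG8, whose starts share the sequence printed above. ABCG5 had 33 and 49 reads (0.62, -0.05 to 1.30), and ABCG8 had 185 and 214 (0.26, -0.03 to 0.55). Both intervals include no change and overlap each other. ABCB11 had 18.1 and 22 reads (0.33, -0.63 to 1.32), and no difference was detectable at this depth.

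The organic anion pumps of subfamily C were higher in Huh7-si in 6 of the 7 genes with at least 10 reads, with a median log2 ratio of 0.68. All 7 are at least 5000 bases long, and 87.4% of all genes of that length were above 0, with a median of 0.52. ABCC3 (MRP3), which returns conjugated bile salts and glucuronides to blood, was at 358 and 923 reads, a log2 ratio of 1.42 (1.24 to 1.60), and stayed past 2-fold with TMM scaling (1.19) and by TPM (1.51). ABCC1 (MRP1), a glutathione conjugate pump, was at 633 and 1124 reads, a log2 ratio of 0.88. By TPM it was past 2-fold, at 7.5 and 17.6 TPM. ABCC5, a cyclic nucleotide transporter, was at 1017 and 1723 reads (0.81), and ABCC10 at 595 and 924 reads (0.68). ABCC4 (MRP4) was at 424 and 597 reads (0.54). ABCC6, whose loss causes pseudoxanthoma elasticum, was at 1526 and 2145 reads (0.54). Its separate level is uncertain, because its pseudogene copy ABCC6P1 took 724 and 801 reads and ABCC6P2 took 105 and 93.5 reads. ABCC11 had the lowest log2 ratio of the family, -0.53, on 36.1 and 24.2 reads, with an interval of -1.35 to 0.25 that includes no change.

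CFTR is an ABC protein that works as a chloride channel, and ABCC8 and ABCC9 are the sulfonylurea receptors that regulate potassium channels. ABCC9 was at 235 and 370 reads, a log2 ratio of 0.70, and ABCC8 was undetected in the control. CFTR had 8 and 20 reads, a log2 ratio of 1.37 (0.13 to 2.76), but 1.53 and 1.40 TPM, a log2 ratio of TPM of -0.13. Of the potassium channel subunits that pair with these receptors, KCNJ8 had 88 and 76 reads (-0.16) and KCNJ11 had 12 and 22 reads (0.92), each with an interval that includes no change.

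The dimerising transporters of mitochondria, peptides and peroxisomes stayed near equal reads for the most part, with median log2 ratios of 0.06, 0.10 and 0.29 for the mitochondrial, peptide and D subfamily groups. ABCB6 had 2008 and 1977 reads (0.03), ABCB10, which supports heme synthesis, 407 and 418 (0.09), and ABCB8 1237 and 1456 (0.28). TAP1 and TAP2, the subunits of the transporter that feeds peptides to MHC class I, were at 107 and 138 reads (0.42, 0.04 to 0.79) and at 401 and 375 reads (-0.05, -0.25 to 0.16). TAP2 overlaps AL669918.1 on the same strand (129 and 66.2 reads), and ABCB6 likewise overlaps AC068946.2 (464 and 503 reads). The separate levels of TAP2 and ABCB6 are therefore uncertain. ABCB9, a lysosomal peptide transporter, was at 122 and 127 reads (0.10). In subfamily D, the peroxisomal fatty acid transporter ABCD3 (2038 and 2009 reads, 0.03) was within counting error. ABCD2, its rare relative, had 12 and 28 reads (1.27, 0.25 to 2.38) and was past 2-fold on few reads, while ABCD4, which helps vitamin B12 leave the lysosome, had 801 and 1138 reads (0.56).

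The soluble ATPases did not share the higher values. ABCE1 had 3194 and 3094 reads, a log2 ratio of 0.00 (-0.07 to 0.07). ABCF1 had 4793 and 4522 reads (-0.04, -0.09 to 0.02) and ABCF3 1652 and 1842 reads (0.21, 0.11 to 0.30). ABCF2 was the lowest of them at 2809 and 2251 reads (-0.27, -0.35 to -0.19). Its reads are uncertain, since a read-through gene on the same strand, ABCF2-H2BE1, took 1064 and 916 reads. With TMM scaling all 4 were below 0, and by TPM all 4 were above 0, so no direction can be given for this group.

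The values also differed with the architecture of the protein. This grouping was chosen after the values were seen. Among 23 full transporters with at least 10 reads, 10 were past 2-fold higher, against 15.2% of all genes, and the median log2 ratio was 0.89. Of the 10, ABCA4, ABCA8, ABCA9 and CFTR passed the read filter only through Huh7-si. Among 15 dimerising transporters, 1 was past 2-fold (ABCD2) and the median was 0.10, and for the 4 soluble ATPases 0 were and the median was -0.02. With TMM scaling the medians were 0.67, -0.12 and -0.24. Summed over members, full transporters held 430 and 797 CPM, a ratio of 1.85, while dimerising transporters held 401 and 437 CPM, a ratio of 1.09, and soluble ATPases 545 and 530 CPM, a ratio of 0.97.

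Gene length moved with this pattern. The members were long, with a median of 5482 bases over the 42 against 2744 bases for all genes with at least 10 reads, and longer genes of the whole table had higher ratios. In the length bins of the whole table, the median log2 ratio was -0.17 in the bin around 839 bases, the lowest, and 0.67 in the bin around 10567 bases, the highest. Spearman's rho between length and log2 ratio, as a description across genes of the same libraries, was 0.56 over the 42 members and 0.31 over all genes. Of the 24 members of at least 5000 bases, 11 were past 2-fold higher, against 18.9% of the 3585 genes of at least 5000 bases, and their median was 0.91 against 0.52. The 18 shorter members had a median of 0.09, against 0.12 for shorter genes, and 0 were past 2-fold. Since 21 of the 23 full transporters are at least 5000 bases long and 12 of the 15 dimerising ones are shorter, architecture and length largely went together in these members. Relative to genes of like length, the median was 0.51 for full transporters (21 of 23 above 0), -0.12 for dimerising ones (6 of 15) and -0.25 for soluble ATPases (1 of 4). Of all 17921 genes, 8954 were above 0 on this scale, which is centred on the median of each length bin. The 21 include ABCA4, ABCA8, ABCA9 and CFTR, which passed the read filter only through Huh7-si. On that same scale all 42 members had a median of 0.26, 28 of 42 were above 0, and 3 (ABCA7, ABCA8 and ABCA9) were at least 2-fold higher, against 11.5% of all genes. In log2 units over that median, ABCC3 was at 0.999, just under the threshold, ABCC2 at 0.76 and ABCA1 at 0.52. The lipid group kept a median of 0.79 above genes of like length, whereas the mitochondrial and peptide groups were at -0.11 and -0.12.

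**Figure D3:**
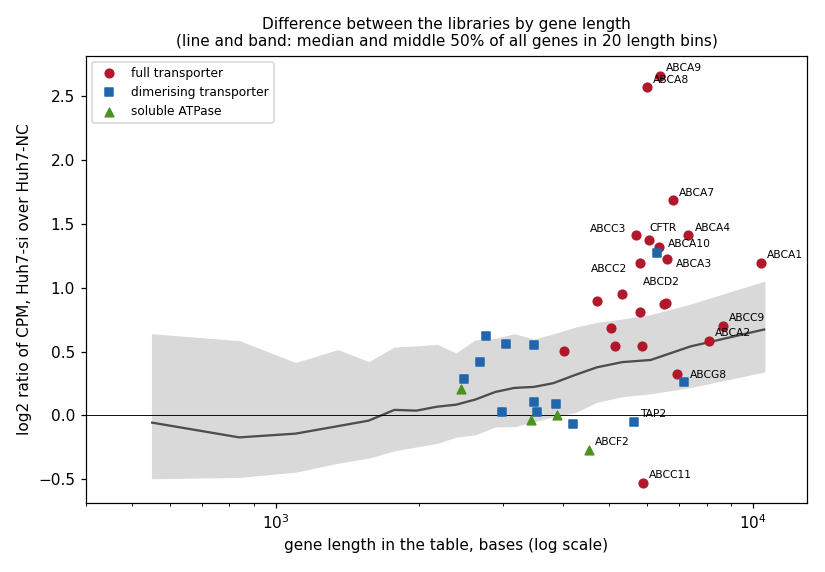
Log2 ratio of CPM (Huh7-si over Huh7-NC) of these 40 genes against gene length in bases on a log axis, with circles for full transporters, squares for dimerising transporters and triangles for soluble ATPases, and with the median (line) and middle 50% (band) of all genes in 20 length bins. Most full transporters lie above the line at its right end, with ABCA7 at 1.68 where genes of like length have a median of 0.54, and ABCC11, TAP2 and ABCF2 lie below it.

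Reads and TPM gave different ratios for some members. Both come from the same libraries, but a gene's TPM also depends on the transcript lengths its reads were assigned to, so reads per TPM can differ between libraries. The log2 ratios by reads and by TPM differed by at least 1 in 6 of the 42 members, each with under 100 reads, and in 2.75% of 17773 genes. These were ABCA4, ABCA6, ABCA8, ABCA9, ABCA10 and CFTR. By TPM 11 of the 42 members were past 2-fold higher, against 20.5% of those 17773 genes. Of these members, 7 were past 2-fold by reads too (ABCA1, ABCA4, ABCA7, ABCA9, ABCA10, ABCC3 and ABCD2), and the others included ABCA5, ABCB1 and ABCC1.

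**Figure D4:**
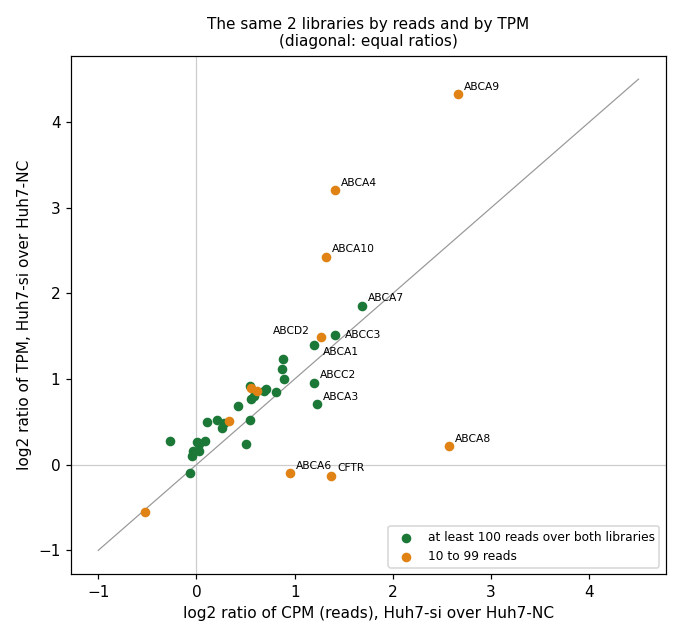
Log2 ratio of TPM against log2 ratio of CPM (both Huh7-si over Huh7-NC) for these 40 genes, with colours for read depth and a diagonal of equal ratios. Most genes with at least 100 reads lie near the diagonal, while ABCA4, ABCA9 and ABCA10 lie far above it and ABCA8, ABCA6 and CFTR far below it.

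Genes that work with these transporters were read from 10 lists. Of 113 such genes in the table, 110 had at least 10 reads. Of these 110, 2 were past 2-fold higher, AHR among them, against 15.2% of all genes, and 1 was past 2-fold lower (SLC51B), against 1.81%. Their median log2 ratio was 0.00, against 0.21 for all genes, with a median length of 2490 bases. Relative to genes of like length their median was -0.12. Among 16 nuclear receptors and other regulators of ABC genes, AHR, the dioxin receptor, had 735 and 1505 reads (1.08, 0.95 to 1.21; 0.86 with TMM scaling), and the group's median was -0.06. Those of that list with the most reads were HNF4A (6766 and 6288 reads, -0.06), NFE2L2 (6223 and 5215 reads, -0.21) and SREBF2 (5458 and 5810 reads, 0.14). Named after their values were seen, the bile acid receptor NR1H4 (FXR) had 2319 and 1515 reads (-0.57, -0.66 to -0.47) and the oxysterol receptors NR1H3 and NR1H2, known to activate ABCA1, had 859 and 680 reads (-0.29) and 1440 and 1106 reads (-0.33). Among the solute carriers and other transporters of bile and drugs, SLC51B, a subunit of the basolateral bile salt exporter, was at 762 and 249 reads (-1.56, -1.78 to -1.36). Of the 12 detected genes SLC22A9 had the most reads (985 and 1411), which are not scaled for length, and their median was 0.44. Also named after their values were seen, the partner subunit SLC51A had 228 and 237 reads (0.10), and SLC10A1, the bile salt uptake carrier of hepatocytes, had 1 read in each library.

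Partners of cholesterol export did not share the higher reads of ABCA1. APOA1, the acceptor of its lipid, was at 15460 and 8417 reads (-0.83, -0.87 to -0.79), APOA2 at 36380 and 25080 (-0.49), APOE at 33265 and 26093 (-0.30) and SCARB1 at 8074 and 7808 (0.00). With a median of 0.00, 0 of the 11 were past 2-fold, against 15.2% of all genes higher and 1.81% lower. Of the 10 detected apical scaffold genes 0 were either, with a median of -0.04, 5 above 0 and 5 below. Those with the most reads were SLC9A3R1 (8201 and 5562 reads, -0.51), EZR (6012 and 5899 reads, 0.02) and RAB11A (3980 and 3259 reads, -0.24). RDX, which anchors ABCC2, was at 2522 and 2860 reads (0.23). In the peptide loading list 0 of 17 genes were past 2-fold and the median was 0.10, with CALR at -0.28 and CANX at 0.33. The peroxisome, ribosome recycling, heme and iron-sulfur, and cobalamin lists also held 0 genes past 2-fold, with medians of -0.15, -0.11, -0.08 and 0.17. Within them HSD17B4 was at 3643 and 3131 reads (-0.17), GCN1 at 4468 and 7166 reads (0.73), ALAS1 at 2633 and 2234 reads (-0.19) and MMADHC at 3407 and 2465 reads (-0.42).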

How the data were processed

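RNA of Huh7-NC and Huh7-si cells was sequenced as 1 library each. The authors deposited a table of 61541 genes with estimated counts of reads, not scaled and partly fractional, and TPM values scaled by the authors for transcript length and library size. The submitters' processing notes name Bowtie2 2.0.6, TopHat2 2.0.12 and GRCh37; the counting tool, annotation and strandedness are not given in the sources used here. All 48 members' identifiers are in GENCODE release 29 (GRCh38), which was used only for positions and overlaps. The deposited fold changes, p-values and calls were not used.

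CPM were computed from the estimated counts and their sums, and ratios from CPM. Genes with at least 10 reads over both libraries were kept, and 2-fold was the threshold. Reads were rounded to whole numbers for 95% Clopper-Pearson intervals. A library at 0 was set to 3 reads. With 1 library per condition no test was run, and depth (the read sums above) limits only counting error. Each member was reported; of partner lists, genes past 2-fold and up to 4 with most reads. Members and lists were chosen with earlier results of these data known. Alternatives were scalings (edgeR, DESeq2), TPM, pseudocounts, filters, a 1.5-fold threshold, intervals and genes of like length (20 bins); counts without fractions were added after seeing the data. The calculation was tested on simulated reads. Some genes, counted in the totals, are not reported here. Overlapping and antisense genes (such as ARL6IP4 opposite ABCB9 and PSMB9 opposite TAP1) may share reads. Python 3.11.15, SciPy 1.17.1, R 4.3.3, edgeR 4.0.16 and DESeq2 1.42.0 were used.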

Additional observations from a re-analysis of the deposited data

How the results depend on the processing

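Under the alternatives run, 0 members were at least 2-fold lower. The 11 members past 2-fold higher became 4 with a pseudocount of 1 CPM (5.08% of all genes) and 3 relative to genes of like length (11.5%). They became 7 with at least 10 reads in each library (9.37%), 5 with at least 100 reads over both (7.45%) and 20 at a threshold of 1.5-fold (28.9%). Filters and thresholds change these counts by construction. So does the pseudocount of 1 CPM, which pulls the ratios of genes with few reads toward no change. The like-length scale does too, because all 11 are at least 5000 bases long and the subtracted medians at that length are positive. The count stayed between 8 and 12 under the other alternatives, where the share of all genes was between 11% and 20.5%. The members' median log2 ratio was 0.33 by TMM scaling, 0.35 by median-of-ratios and 0.37 by upper quartiles, where all genes were at -0.01, 0.00 and 0.02, and 0.70 by TPM, where all genes were at 0.39. It was 0.26 relative to genes of like length and 0.88 over the 21 members with whole counts, an alternative chosen after seeing the data, where all such genes were at 0.19. BRF2 was at -1.99, -1.97, -1.95 and -1.59 with the same 3 scalings and by TPM. CFTR, past 2-fold by reads, changed sign by TPM (-0.13). With TMM scaling ABCA1 (0.97), ABCC2 (0.97) and ABCA3 (0.997) were no longer past 2-fold. The sign changed for 7 members with TMM scaling, for 6 by TPM, CFTR and ABCA6 (0.95 by reads, -0.10 by TPM) among them, and for 8 relative to genes of like length. No paired analysis was possible because each condition had 1 library. At this depth the intervals of members with few reads are wide, such as 0.47 to 5.84 for ABCA9.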
